A study of Mus musculus with 16 samples.

Results

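The genes described here build and run the degradative lysosome: cathepsins and other lysosomal proteases, hydrolases of sugars, sulfates and lipids, proteins of the lysosomal membrane, and subunits of the vacuolar proton pump. The list held 40 genes, chosen by name, and its members were all probes whose gene symbol in the platform annotation was on that list. In all, 39 of the 15161 genes named on the array matched, with 50 of its 24607 probes. Of these, 36 genes with 46 probes were bright enough to be tested, among 10521 tested probes. Cd68, a lysosomal glycoprotein of macrophages, had no probe under its symbol and was not analysed here.

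Lysosomes take up cargo from phagocytosis, endocytosis and autophagy and break it down with hydrolases that work best in acid. The vacuolar proton pump acidifies the lumen with energy from ATP, and heavily glycosylated membrane proteins shield the limiting membrane from the enzymes inside. Macrophages are rich in these organelles, and in atherosclerosis their lysosomes hydrolyse the cholesteryl esters and proteins of engulfed lipoproteins. Several cathepsins also leave the cell and cleave matrix proteins, and the transcription factor TFEB binds short palindromic sites in the promoters of many lysosomal genes.

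Peritoneal macrophages were collected from 6 SR-uPA+/0 transgenic and 6 nontransgenic female mice at 15 weeks of age. Mice of both genotypes were Apoe-/-, so all lacked apolipoprotein E, and had eaten a Western diet for 10 weeks from 5 weeks of age. The transgene was meant to overexpress urokinase plasminogen activator (uPA, the product of Plau) in macrophages. Cells were drawn into the peritoneum with thioglycollate, harvested 5 days later and kept if still attached to plastic after 2 h. Each animal's RNA went to 1 Illumina Mouse Ref-8 v1.1 array, and 4 more arrays held 2 hybridisations of each of 2 pools, made from the 6 RNAs of 1 genotype. Pool arrays are technical repeats of RNA from the same animals and entered no test. Neither chip nor position was given for any array, so chip could not enter the fit.

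Intensities are the deposited values on a linear scale, after the authors' own correction and normalization, and a value below about 57 units was within noise. Fold changes are differences of log2 intensity after a further normalization, transgenic minus nontransgenic, from a limma fit across all tested probes. A gene was called where its p-value, adjusted over all 10521 tested probes, was under 0.05.

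Plau itself did not separate the labels on the probe used. Its probe read 536 to 2907 units in transgenic animals and 513 to 3527 units in nontransgenic ones, and limma put the genotypes -0.10 apart on the log2 scale (SE 0.42, adjusted p = 0.967). Directions below therefore refer to the animals as labelled. Cells of both labels carried macrophage transcripts: 9 of 10 matched macrophage markers were tested, none was called, and their summed intensity ran from 76036 to 98145 units in transgenic and from 81655 to 96006 units in nontransgenic animals. The Msr1 probe lay below noise on all 12 arrays. Markers of other cells differed between the groups. Of 11 tested neutrophil markers 4 were higher in transgenic animals, where the summed intensity of the 16 matched markers was 13583 to 51090.4 units, against 5361 to 19526 units in nontransgenic ones, with Elane, Mmp8, Mpo and Ngp below noise throughout. Of 14 tested mesothelial and fibroblast markers 4 were lower in transgenic animals, with summed intensities of 2090.1 to 7114 units over the 18 matched markers, against 8379 to 15869 units, and Lrrn4 and Lum below noise. Fewer cells of a type and less RNA per cell cannot be told apart in such bulk samples.

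None of the 36 tested lysosomal genes was called higher or lower in transgenic macrophages by limma, where 77 of all tested probes (0.732%) were called. The smallest adjusted p was 0.486, for Atp6v0d1, and an exact permutation test in place of limma called 0 genes and 0 probes in all after adjustment. The smallest p that permutation test allows, 0.00216, passes adjustment over 10521 probes only if many probes reach it, so its 0 calls carry little information. At an unadjusted limma p under 0.05, 1 of 36 members stood out, against 898 of all tested probes (8.54%). No member had groups that did not overlap (1.07% of all tested probes), and none differed by over 1.5-fold (2.04% of all tested probes). Differences ran from -0.43 to 0.25 on the log2 scale, 13 positive and 23 negative, with a median of -0.05, against 0.01 over all tested probes, of which 5486 were positive and 5035 negative. With the mean levels of the neutrophil and of the mesothelial and fibroblast markers as terms in the fit, limma called 0 of 36 members (smallest adjusted p = 0.491) and 1 of all 10521 tested probes (0.00950%). Standard errors of the 14 genes given in full were then 0.22 to 0.43, against 0.10 to 0.19 without these terms, so that count says little about the members. The median member difference was then 0.05.

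On the scale used, the intervals bound what these arrays could miss. For 33 of 36 genes the whole 95% confidence interval of the difference lay within 1.5-fold in either direction, and for 36 of 36 it lay within 2-fold. Over all 10521 tested probes these counts were 8696 and 10223. Ctsf, among the 33, read near noise, where folds are understated on this scale. Psap, also among the 33, reached the array's highest intensity. Its SD between animals of 1 genotype was 0.05 on this scale and 0.11 without further normalization, so its interval bounds less than its width implies. Lamp1 and Laptm5 reached 92.1% and 84.2% of the highest intensity of an array. Whether the brightest probes were saturated was not tested. The 3 genes whose interval reached past 1.5-fold were Atp6v0d1 (-0.80 to -0.06), Neu1 (-0.71 to 0.05) and Ctsz (-0.12 to 0.62). In simulated arrays with 6 animals a group, the same procedure recovered 23.9% of 67 probes changed 1.5-fold and 86.6% of 67 changed 2-fold. A shift of 1.5-fold in a single gene would therefore often have gone uncalled at this number of arrays.

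**Figure D1:**
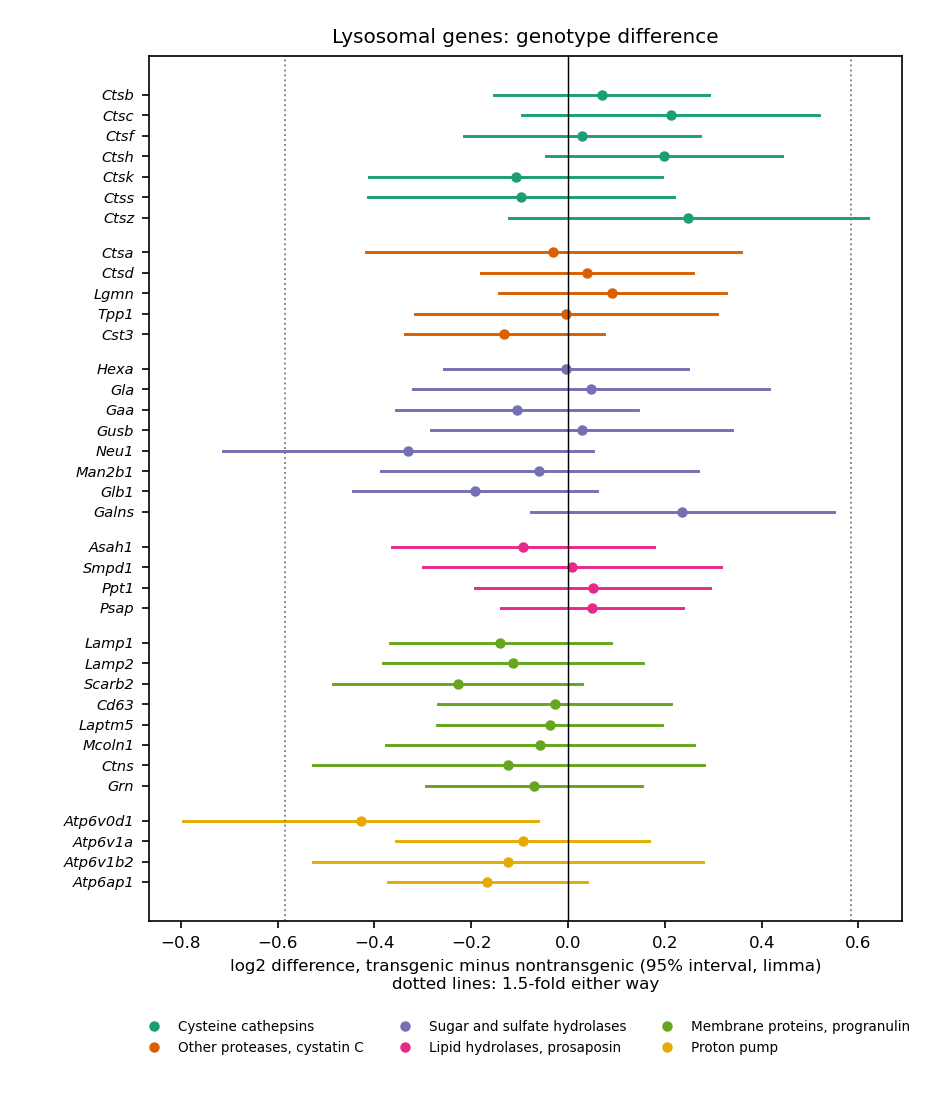
Difference in log2 intensity, transgenic minus nontransgenic, of the 36 tested lysosomal genes grouped by role; points are limma estimates from 6 animals a genotype, bars are 95% confidence intervals, and dotted lines mark 1.5-fold. The interval of Atp6v0d1, -0.80 to -0.06, is the one that leaves out 0, and all 8 membrane genes (Laptm5 on this scale only) and 4 proton pump genes sit left of 0 without passing the adjusted test.

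Promoter sequence had not entered the choice of the list by name. The motifs searched are, however, known from promoters of lysosomal genes, so a higher share among members was foreseen. RefSeq promoters of GRCm38.p6, 250 bases before to 50 after the gene start, were at hand for 33 of the 40 listed genes and 27025 genes in all. Those 27025 were not matched to the members in expression or base composition. The E-box CACGTG, at the centre of the sites TFEB is known to bind, was present in 12 of 33 members (36.4%), against 8.09% of all promoters. Its extended form TCACGTGA was in 6 members (18.2%), namely Ctsa, Ctsd, Gla, Mcoln1, Atp6v0d1 and Atp6v1a, against 1.12% of all promoters. A longer form, with a G before and a C after the extended form, was searched for too. It was in 0 of 33 members, against 100 of 27025 promoters (0.370%). So few promoters hold the longer form that its absence from 33 says little. Each motif equals its own reverse complement, so 1 search covers both strands, and the extended form contains the core.

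Windows of 170 bases, from 140 before to 30 after the gene start, are printed for 5 members that hold the extended motif there and for Lamp1, which holds 4 copies of the core. They run 5′ to 3′ on the gene's strand in lower case, with TCACGTGA or, where it is not extended, CACGTG in capitals. Ctsa lies at chr2:164833633-164833802 on the plus strand, Ctsd at chr7:142387798-142387967 on the minus strand and Mcoln1 at chr8:3500379-3500548 on the plus strand. Lamp1 lies at chr8:13159021-13159190 on the plus strand, Atp6v0d1 at chr8:105566035-105566204 on the minus strand and Atp6v1a at chr16:44139230-44139399 on the minus strand.
Ctsa: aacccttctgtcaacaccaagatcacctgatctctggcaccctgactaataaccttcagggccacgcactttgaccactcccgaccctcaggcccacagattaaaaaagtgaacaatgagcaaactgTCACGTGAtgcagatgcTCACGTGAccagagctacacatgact
Ctsd: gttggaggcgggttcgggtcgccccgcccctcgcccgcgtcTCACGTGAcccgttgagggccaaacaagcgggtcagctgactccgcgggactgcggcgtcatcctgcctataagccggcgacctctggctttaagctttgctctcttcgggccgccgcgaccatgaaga
Mcoln1: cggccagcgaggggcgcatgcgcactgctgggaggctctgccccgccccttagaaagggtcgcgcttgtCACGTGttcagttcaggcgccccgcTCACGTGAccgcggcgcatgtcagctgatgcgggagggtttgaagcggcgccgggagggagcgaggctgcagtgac
Lamp1: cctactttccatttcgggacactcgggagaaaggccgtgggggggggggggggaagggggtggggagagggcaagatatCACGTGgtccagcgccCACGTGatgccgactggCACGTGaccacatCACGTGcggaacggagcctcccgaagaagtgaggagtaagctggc
Atp6v0d1: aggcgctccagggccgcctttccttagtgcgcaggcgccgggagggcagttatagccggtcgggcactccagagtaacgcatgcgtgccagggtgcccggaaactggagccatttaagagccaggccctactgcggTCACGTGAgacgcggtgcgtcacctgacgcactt
Atp6v1a: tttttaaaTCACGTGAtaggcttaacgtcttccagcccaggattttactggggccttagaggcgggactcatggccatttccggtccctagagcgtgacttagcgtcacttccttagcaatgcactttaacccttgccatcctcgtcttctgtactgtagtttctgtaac

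In Ctsa the 2 extended motifs lie on either side of the gene start, with their first letters at -13 and 4, and in Atp6v0d1 the motif begins at -4. The motif of Ctsd begins at -99, that of Atp6v1a at -132 and that of Mcoln1 at -46. Lamp1 holds its 4 cores within the last 61 bases before the start. A match describes these letters and is not evidence of binding in these cells. Genes with the extended motif had a median genotype difference of -0.04 (n = 6, range -0.43 to 0.05), and those without it -0.06 (n = 25, range -0.33 to 0.25).

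Cysteine cathepsins are papain-like proteases made as proenzymes and matured in the acid lumen. Of 7 tested, 0 were called, 5 were positive and 2 negative, and the median log2 difference was 0.07. Ctsh, an aminopeptidase of this family, read 10414, 13144, 9655, 10144, 9729 and 9303 units in transgenic animals 1 to 6, against 9223, 9767, 8167, 10347, 7778 and 8755 units in nontransgenic animals 1 to 6. All 6 transgenic animals lay above the nontransgenic mean after normalization, yet the groups overlapped. The log2 difference was 0.20 (SE 0.12, limma adjusted p = 0.694), and the exact two-sided permutation p for this gene alone was 0.0649. Transgenic animal 2, at 13144 units, was the highest of the 12, and without it the difference was 0.13. The pool difference of Ctsh had the opposite sign, -0.05 on the log2 scale.

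Ctsz, a carboxypeptidase, read 19693, 21610.1, 22441, 31554, 23529.9 and 26098 units in transgenic animals 1 to 6, against 19441, 20573, 11516, 23187, 24691 and 23954 units in nontransgenic animals 1 to 6. One nontransgenic animal, number 3, was far below the rest of both groups, and the difference of 0.25 (SE 0.18, limma adjusted p = 0.766) was 0.086 without it. Ctsc, which activates the serine proteases of granules by removing dipeptides, read 5191, 6603 and 7391 units in transgenic animals (lowest, median and highest), against 3844, 5978 and 7047 units in nontransgenic ones. Here the groups overlapped over most of their range, with a difference of 0.21 (SE 0.14, limma adjusted p = 0.751) that was 0.11 without nontransgenic animal 1.

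The other cysteine cathepsins lay closer to 0. Ctsb, an abundant endopeptidase and dipeptidase, averaged 48223 ± 4254 units in transgenic animals and 44475 ± 4387 units in nontransgenic ones (SD, n = 6 each), a difference of 0.07. Ctsk, the collagenolytic cathepsin best known from osteoclasts, spanned 14440.0 to 28120.4 units in transgenic animals and 19775 to 24934 units in nontransgenic ones, a difference of -0.11. For Ctss, an elastase that also processes the invariant chain of MHC class II, the spans were 6585 to 10815 units in transgenic animals and 7657 to 12348 units in nontransgenic ones, a difference of -0.10. Each of these 3 had overlapping groups and adjusted p-values from limma of 0.900 for Ctsb, 0.882 for Ctsk and 0.902 for Ctss. Ctsf was near noise, above it in 2 transgenic and 3 nontransgenic animals, with a log2 difference of 0.03.

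Ctsl, a broad endopeptidase, was not tested. Its probe read 64.9, 36.0, 33.5, 40.7, 26.4 and 53.1 units in transgenic animals 1 to 6, against 26.4, -6.41, 6.24, 18.4, -7.18 and 27.9 units in nontransgenic animals 1 to 6. It exceeded the noise limit on 1 array, that of transgenic animal 1, so no fold is given. These values speak of this probe and not of the level of the transcript.

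Among the other proteases and their inhibitor cystatin C, 0 of 5 were called, with 2 positive, 3 negative and a median difference of -0.0046. Cst3, the secreted cystatin that blocks cysteine cathepsins, read 40736, 39019, 37584, 37442, 38606 and 42252 units in transgenic animals 1 to 6, against 45174, 41584, 44185, 39206, 37870.4 and 45568 units in nontransgenic animals 1 to 6. All 6 transgenic animals lay below the nontransgenic mean, within a narrow range that overlapped the other group. The log2 difference was -0.13 (SE 0.10, limma adjusted p = 0.781), with an exact two-sided permutation p of 0.0541 for this gene alone. Pool repeats read 51498 and 46217 units for the transgenic pool, against 40259.9 and 49800.4 units for the nontransgenic pool, a spread wider than that between animals.

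Ctsa, the serine carboxypeptidase that protects the sialidase and the beta-galactosidase in a shared complex, and the gene with 2 extended E-boxes around its start, was among the most variable genes, with an SD between animals of 1 genotype of 0.36 on the log2 scale. It read 3631, 4604, 2892, 2810.0, 2309 and 1886 units in transgenic animals 1 to 6, against 3543, 2912, 2303, 3075, 2579.9 and 3606 units in nontransgenic animals 1 to 6. Transgenic animal 2 was the highest and transgenic animal 6 the lowest of the 12, and the groups had nearly equal means, with a difference of -0.03 (SE 0.18, limma adjusted p = 0.977). Ctsd, the aspartic cathepsin, averaged 39501 ± 4051 units in transgenic animals and 37964 ± 2231 units in nontransgenic ones (SD, n = 6 each), a difference of 0.04. Lgmn, the asparaginyl endopeptidase that also matures cathepsins, spanned 23587 to 34700.5 units in transgenic animals and 25835 to 30660.5 units in nontransgenic ones, a difference of 0.09. For Tpp1, a tripeptidyl peptidase, the difference was -0.0046, with spans of 2512 to 4579 units in transgenic animals and 2776 to 4323 units in nontransgenic ones.

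Of the 8 hydrolases of sugars and sulfates, 0 were called, 3 were positive and 5 negative, and the median difference was -0.03. Neu1, the lysosomal sialidase, read 2942, 4995, 5504, 6221, 4666 and 3165 units in transgenic animals 1 to 6, against 4767, 5993, 5649, 5350.3, 4712 and 7563 units in nontransgenic animals 1 to 6. Transgenic animals 1 and 6 were the lowest of the 12 and the other 4 lay within the nontransgenic range or close to it. The difference was -0.33 (SE 0.18, limma adjusted p = 0.654), and without transgenic animals 1 and 6, which stood apart from the rest in principal components, it was -0.07. Without transgenic animal 1 alone it was -0.22. The probe repeated poorly: the 2 hybridisations of the transgenic pool read 1832 and 5839 units, 1.62 apart on the log2 scale, against 5473 and 5349.8 units for the nontransgenic pool.

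Glb1, the beta-galactosidase of the same complex, read 5569, 5598, 5233, 7367, 5989 and 5854 units in transgenic animals 1 to 6, against 7022, 6326, 6561, 6674, 5722 and 8606 units in nontransgenic animals 1 to 6. Of the transgenic animals 5 lay below the nontransgenic mean, nontransgenic animal 6 was the highest of all, and the difference of -0.19 (SE 0.12, limma adjusted p = 0.707) was -0.12 without that animal. Galns, which removes sulfate from keratan and chondroitin sulfate, went the other way and read 757, 1439, 884, 1301, 1117 and 1036 units in transgenic animals 1 to 6, against 746, 791, 928, 1150.3, 815 and 969 units in nontransgenic animals 1 to 6. Of the transgenic animals 4 lay above the nontransgenic mean and the groups overlapped, with a difference of 0.24 (SE 0.15, limma adjusted p = 0.713) that was 0.16 without transgenic animal 2. Its pool repeats were close, at 925 and 893 units for the transgenic pool, against 956 and 885 units for the nontransgenic pool.

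The remaining 5 glycosidases were Hexa, the alpha subunit of beta-hexosaminidase A (-0.0039), Gla, the alpha-galactosidase (0.05), Gaa, which degrades glycogen (-0.11), Gusb, the beta-glucuronidase (0.03), and Man2b1, an alpha-mannosidase (-0.06). Hexa averaged 28366 ± 2813 units in transgenic animals and 28233 ± 4174 units in nontransgenic ones (SD, n = 6 each). Its sign was not settled: without further normalization the difference was 0.014. Man2b1 spanned 12642 to 23189 units in transgenic animals and 16202 to 26869.5 units in nontransgenic ones, and Gla spanned 239.9 to 698 units in transgenic animals and 388 to 622 units in nontransgenic ones. In each of these the groups overlapped by several animals, and no adjusted p from limma was below 0.852.

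The lipid branch held Asah1, Smpd1, Ppt1 and Psap, of which 0 were called, 3 were positive and 1 negative, with a median difference of 0.03. Asah1, the acid ceramidase, gave different signs on its probes. The brighter probe read 28264, 24716, 20073, 26449, 24975 and 27610.0 units in transgenic animals 1 to 6, against 29959, 32979.5, 26644, 20982, 24017 and 27345 units in nontransgenic animals 1 to 6, with transgenic animal 3 the lowest of the 12 and a difference of -0.09 (SE 0.13, limma adjusted p = 0.888). That difference was -0.022 without transgenic animal 3, -0.039 without nontransgenic animal 2, -0.056 without nontransgenic animal 1 and -0.17 without nontransgenic animal 4. A dimmer probe of the same gene read 892, 1281, 1134, 751, 1289 and 1113 units in transgenic animals 1 to 6, against 1017, 654, 602, 871, 904 and 989.8 units in nontransgenic animals 1 to 6. The groups overlapped on that probe too, with a difference of 0.33 (SE 0.15, limma adjusted p = 0.579) that did not pass, and the unadjusted limma p was 0.0484.

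Psap encodes prosaposin, the precursor of the saposins that lift sphingolipids to their hydrolases. Its probe was among the 5 brightest on every animal array and reached the array's highest intensity on some. By its construction, quantile normalization gives the brightest probes nearly the same value on every array. Deposited intensities averaged 67469 ± 2787 units in transgenic animals and 61212 ± 6366 units in nontransgenic ones (SD, n = 6 each). The log2 difference was 0.05 after quantile normalization and 0.15 without further normalization (limma adjusted p = 0.752), and the SD between animals of 1 genotype was 0.05 and 0.11. Smpd1, the acid sphingomyelinase, and Ppt1, which removes palmitate from proteins, differed by 0.01 and 0.05.

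All 8 tested genes of the membrane group, which includes secreted progranulin, were negative after quantile normalization and 0 were called. Their median difference was -0.09, and 1 of them, Laptm5, was positive without further normalization. The pools did not share this uniform sign. Pool differences were positive for Lamp2 (0.24), Scarb2 (0.13), Lamp1 (0.11), Grn (0.05) and Ctns (0.02). They were negative for Laptm5 (-0.26), Mcoln1 (-0.07) and Cd63 (-0.006). Scarb2 encodes LIMP-2, the receptor that carries beta-glucocerebrosidase to lysosomes, and read 3842, 4230.5, 3322, 3839, 3985 and 2805 units in transgenic animals 1 to 6, against 4596, 3997, 4211, 4268, 3609 and 5114 units in nontransgenic animals 1 to 6. Every transgenic animal lay below the nontransgenic mean, with transgenic animal 6 the lowest of the 12, and the groups overlapped. The difference was -0.23 (SE 0.12, limma adjusted p = 0.647), and the exact two-sided permutation p for this gene alone was 0.0584. Pools of the same RNAs gave the opposite sign, 4793 and 4170 units for the transgenic pool, against 4636 and 3637 units for the nontransgenic pool.

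Ctns, the cystine exporter, had the largest SD between animals of 1 genotype among the members above noise on all 12 arrays, 0.38. It read 2440.4, 1298, 2842, 3241, 2272 and 3383 units in transgenic animals 1 to 6, against 3035, 2456, 2303, 2242, 3215 and 3114 units in nontransgenic animals 1 to 6. Transgenic animal 2 was the lowest of the 12, and the difference of -0.12 (SE 0.19, limma adjusted p = 0.903) was 0.054 without that animal. Lamp1, a major glycoprotein of the lysosomal membrane, averaged 44474 ± 2031 units in transgenic animals and 47763 ± 6504 units in nontransgenic ones (SD, n = 6 each), a difference of -0.14. All 6 transgenic animals lay below the nontransgenic mean, which nontransgenic animal 3 raised. That animal read 59871.5 units, against 42389.4 to 48606.1 units in the other nontransgenic animals. The pool difference of Lamp1 had the opposite sign, 0.11 on the log2 scale. Lamp2, a paralog of Lamp1, spanned 11103 to 15434 units in transgenic animals and 11280.1 to 17075 units in nontransgenic ones, a difference of -0.11.

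The other 4 genes of that group differed by less. Cd63, a tetraspanin of late endosomes, averaged 40214 ± 5458 units in transgenic animals and 40447 ± 3872 units in nontransgenic ones (SD, n = 6 each), a difference of -0.03. For Laptm5, a transmembrane protein of blood cells, the average was 48125 ± 5459 units in transgenic animals and 47222 ± 3141 units in nontransgenic ones (SD, n = 6 each), a difference of -0.04. In both of these the means of the groups lay within 1 SD of each other. Deposited means of Laptm5 were higher in transgenic animals, and without further normalization its difference was 0.022. Grn encodes progranulin, which is cut into granulins in lysosomes, and averaged 43680.3 ± 4436 units in transgenic animals and 44980.4 ± 3457 units in nontransgenic ones (SD, n = 6 each), a difference of -0.07. Mcoln1, the calcium channel TRPML1, also with the extended E-box, spanned 771 to 1646 units in transgenic animals and 1093 to 1451 units in nontransgenic ones, a difference of -0.06. Transgenic values of Mcoln1 covered a wider range than the nontransgenic ones and enclosed them.

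The proton pump list held 4 tested genes, all negative, of which 0 were called, with a median difference of -0.15. In the pools, Atp6v0d1 (0.50) and Atp6ap1 (0.09) were positive, and Atp6v1a (-0.09) and Atp6v1b2 (-0.11) negative. Atp6v0d1 encodes the d1 subunit, which joins the central stalk of the pump to its membrane ring, and is one of the genes with the extended E-box at the start. It read 12389.8, 11456, 8302, 8869, 5869 and 5891 units in transgenic animals 1 to 6, against 13374, 12119, 10918, 10571, 10075 and 11059 units in nontransgenic animals 1 to 6. Transgenic animals 1 and 2 lay among the nontransgenic values, and animals 3 to 6 below all of them. The log2 difference was -0.43 (SE 0.17, limma adjusted p = 0.486), with an unadjusted limma p of 0.0248 and an exact two-sided permutation p of 0.0498.

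The pools of the same RNAs gave the opposite order for Atp6v0d1, 11918 and 9855 units for the transgenic pool, against 9535 and 6038 units for the nontransgenic pool. The pool difference was 0.50 on the log2 scale, and repeats of 1 pool differed by up to 0.65. Of its dimmer probes, one differed by -0.03 (SE 0.15, limma adjusted p = 0.971) and another by -0.38 (SE 0.24, limma adjusted p = 0.724). Both were negative like the brightest probe, but with sizes far apart.

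Atp6ap1, an accessory protein of the pump, read 34052, 31007, 34484, 27334, 33052 and 30693 units in transgenic animals 1 to 6, against 34365, 40205, 33993, 33987, 33433 and 34673 units in nontransgenic animals 1 to 6. All 6 transgenic animals lay below the nontransgenic mean, and nontransgenic animal 2 was the highest by a wide margin. The spread between animals was small, with an SD of 0.10 on the log2 scale. The difference was -0.17 (SE 0.10, limma adjusted p = 0.693), while the exact two-sided permutation p for this gene alone was 0.00649, which does not carry limma's moderation of small variances. Pool repeats read 32096 and 38855 units for the transgenic pool, against 35389.9 and 31229.5 units for the nontransgenic pool.

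Atp6v1b2, a subunit of the V1 sector that hydrolyses ATP, read 35756, 31953, 31218, 14614, 38980.4 and 34143 units in transgenic animals 1 to 6, against 36126, 35737, 31844, 29593, 32206 and 29002 units in nontransgenic animals 1 to 6. Transgenic animal 4 read far below every other animal, and the difference of -0.12 (SE 0.19, limma adjusted p = 0.902) was 0.079 without it. Atp6v1a, the subunit with the catalytic site and a promoter that holds TCACGTGA, spanned 4947 to 7389 units in transgenic animals and 5350.4 to 7953 units in nontransgenic ones, a difference of -0.09. Atp6v0d2, the d2 subunit typical of osteoclasts, and Atp6v1h lay within noise on all 12 arrays and were not tested.

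**Figure D2:**
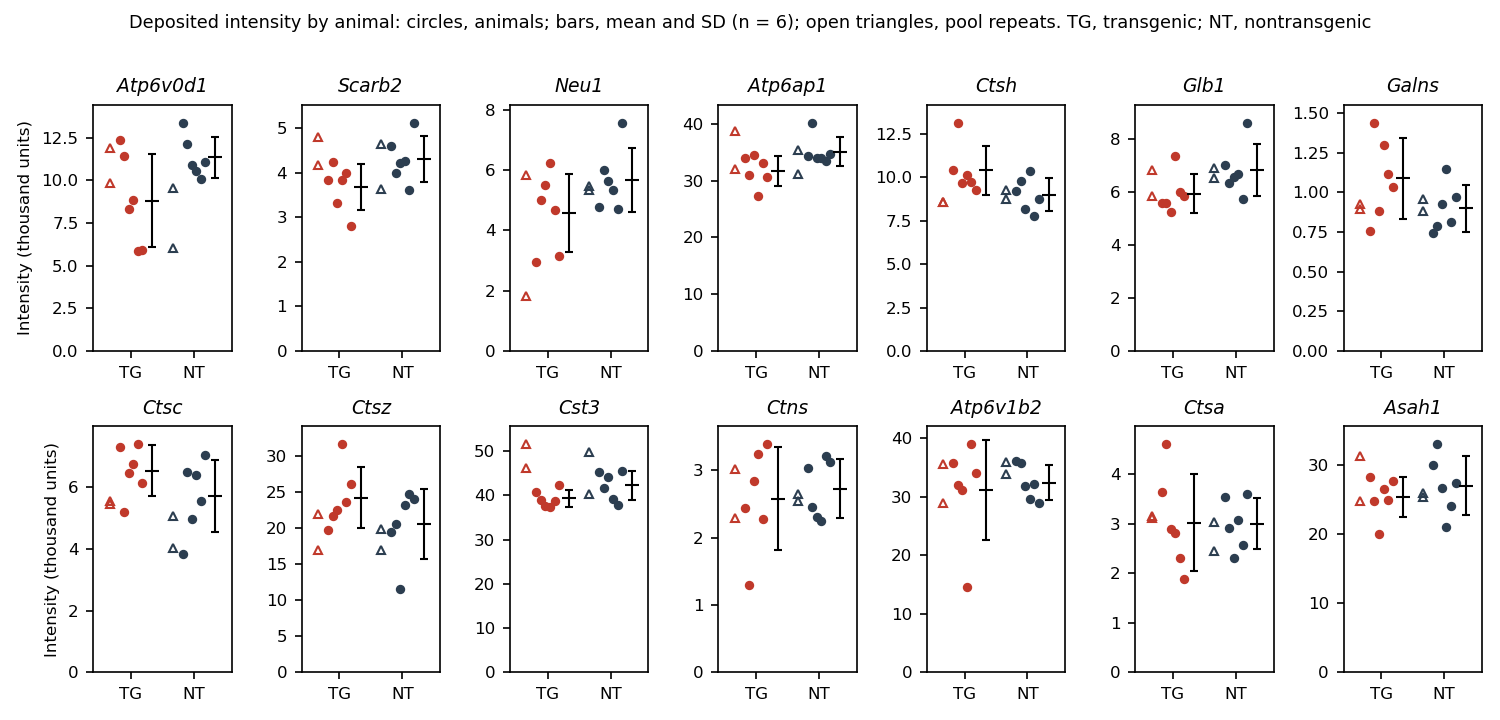
Deposited intensity, on linear axes from 0, of the 14 genes described in full; each circle is 1 animal (transgenic left, nontransgenic right), bars show the mean and SD of 6 animals, and open triangles are the 2 hybridisations of each RNA pool. The genotypes overlap in every panel, single animals such as transgenic 4 for Atp6v1b2 (14614 units) lie far from their group, and the transgenic pool repeats of Neu1 read 1832 and 5839 units.

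Several genes were read by more than 1 probe, which gives a check within each array. Of 9 such genes, 5 had probes of different sign: Asah1, Ctsb, Ctsz, Gusb and Smpd1. For Ctsz the brighter probe differed by 0.25 and the other by -0.07 (SE 0.12, limma adjusted p = 0.906). For Ctsc both were positive, at 0.21 on the brighter and 0.04 (SE 0.12, limma adjusted p = 0.953) on the other. The widest spans between probes of 1 gene were 0.42 for Asah1, 0.39 for Atp6v0d1 and 0.32 for Ctsz, close in size to the largest genotype differences of the whole list. The dimmer probes of Ctsa and Smpd1 read close to noise.

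**Figure D3:**
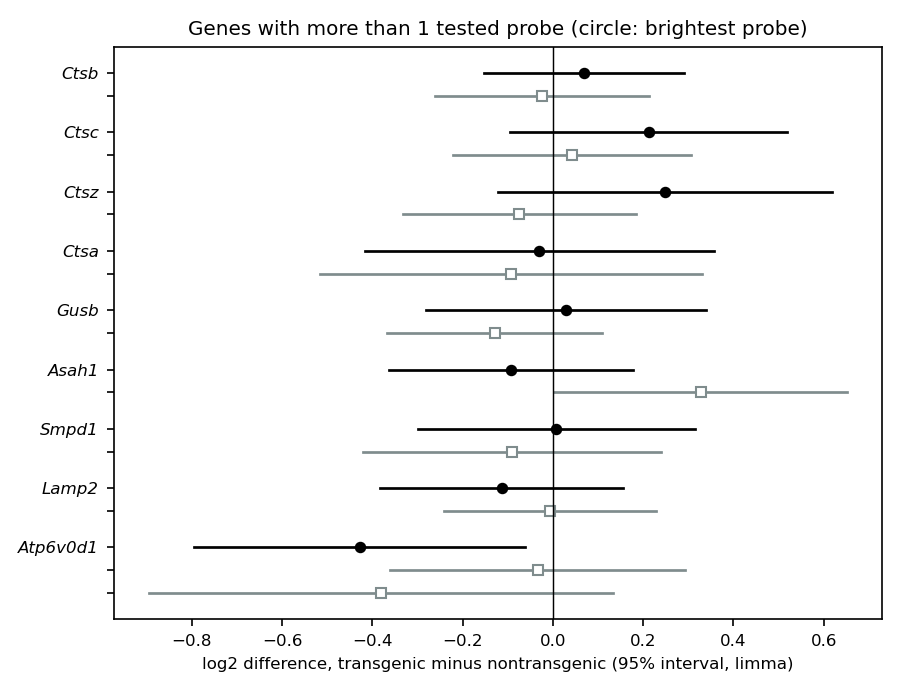
Log2 difference, transgenic minus nontransgenic, for each tested probe of the 9 genes with more than 1; circles are the brightest probe, squares the other probes, and bars 95% confidence intervals from limma with 6 animals a genotype. Probes of 5 genes fall on different sides of 0, and the 2 Asah1 probes lie 0.42 apart.

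Animals of 1 genotype differed from each other by more than most genotype differences. Over the 35 genes above noise on all 12 arrays, the median SD between animals of 1 genotype was 0.21 on the log2 scale, and the SD between repeat hybridisations of 1 pool was 0.15. The animal SD was the larger for 24 of them, 68.6%, against 73.4% of all 7585 probes above noise on all 12 arrays, where the medians were 0.24 and 0.16. The lysosomal genes thus sat near the rest of the array in both measures, without a test of that difference. The repeat SD rests on 2 pools and is itself imprecise.

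Genes differed widely in how far animal spread exceeded repeat spread. Galns had an animal SD of 0.27 and a repeat SD of 0.05, a ratio of 5.30, Ctsh had 0.17 and 0.04, a ratio of 4.11, and Tpp1 had 0.26 and 0.07, a ratio of 3.59. At the other end stood Cst3 with 0.10 and 0.24, a ratio of 0.424, and Neu1 with 0.35 and 0.81, a ratio of 0.432. The repeat SD of Neu1 comes from the transgenic pool, since repeats of the nontransgenic pool differed by 0.05 on the log2 scale.

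**Figure D4:**
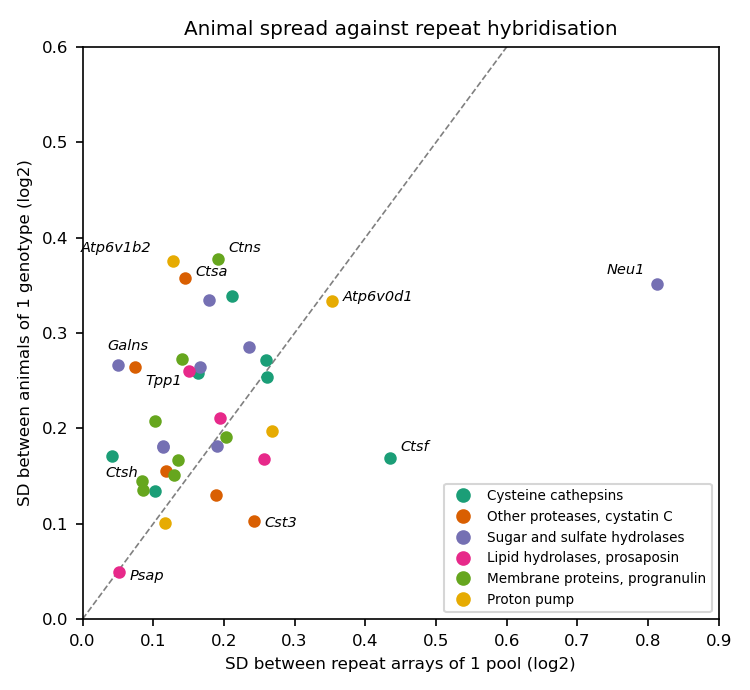
SD of log2 intensity between animals of 1 genotype (vertical axis) against the SD between repeat hybridisations of 1 pool (horizontal axis), 1 point for each of the 36 tested genes, coloured by role; the dashed line marks equality. Galns and Ctsh lie far above the line, Neu1 lies far below it at a repeat SD of 0.81, and Atp6v0d1 lies close to it.

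Many of the larger deviations belonged to single animals, though not that of Atp6v0d1, where 4 transgenic animals read low. Transgenic animal 2 had the highest Ctsa, Ctsh and Galns values of the 12 and the lowest Ctns value. Transgenic animal 6 had the lowest Ctsa and Scarb2 values, and transgenic animal 4 the lowest Atp6v1b2 value together with the highest Ctsz value. No animal was high or low throughout the list.

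**Figure D5:**
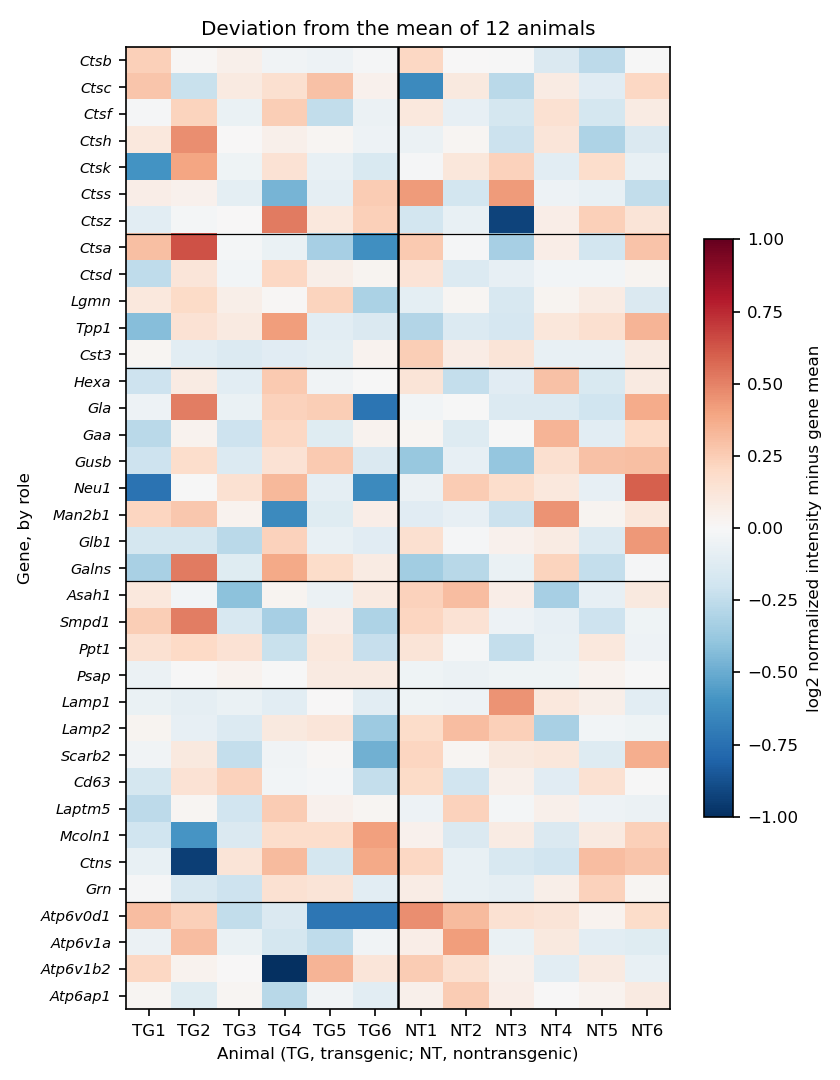
Log2 normalized intensity of each tested gene minus its mean over 12 animals, as colour from -1 (blue) to 1 (red); rows are genes grouped by role, and columns are transgenic animals 1 to 6 followed by nontransgenic animals 1 to 6. Strong cells are scattered over single animals, such as Ctns in transgenic animal 2 and Ctsz in nontransgenic animal 3, and no block separates the genotypes.

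Functional partners were compared across the 12 animals on the log2 scale, as 6 pairs that could be measured. Cst3 and its target protease Ctss gave r = 0.63 (permutation p = 0.0334, 0.200 after Benjamini-Hochberg adjustment over the 6 pairs) and rho = 0.48 (permutation p = 0.116, adjusted 0.383). Within genotypes r was 0.71 in transgenic animals (exact permutation p = 0.0694, n = 6) and 0.62 in nontransgenic ones (exact permutation p = 0.239, n = 6). Without nontransgenic animals 1 and 3, the farthest from the Cst3 median, r over the remaining 10 was 0.17, so the pooled value on this scale rests on those animals. Without further normalization r was 0.54 over 12 animals (permutation p = 0.0703, adjusted 0.422). It was then 0.84 in transgenic animals (exact permutation p = 0.00556, n = 6, not adjusted), 0.38 in nontransgenic ones and 0.78 without nontransgenic animals 1 and 6.

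The other 5 pairs had r between 0.14 and 0.35, with adjusted permutation p-values of 0.637 to 0.671, and none passed. Ctsd and Psap gave r = 0.35 and rho = 0.47, for the protease that cleaves prosaposin. Without further normalization, which spares Psap the near-equal values of the quantile step, r was 0.23 and rho 0.13. For the multienzyme complex, Ctsa and Neu1 gave r = 0.20 and rho = 0.10, and Ctsa and Glb1 gave r = 0.14 and rho = -0.01. The pump subunits Atp6v1a and Atp6v1b2 gave r = 0.21 and rho = 0.11, and the membrane glycoproteins Lamp1 and Lamp2 gave r = 0.27 and rho = 0.36. For that last pair r was 0.063 and rho -0.18 without further normalization. Ctsk with Atp6v0d2 and Ctsb with Ctsl were planned too but lacked a measured partner.

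Other genes of lysosome biology gave no calls either. Of 119 listed, 102 had a probe and 76 were tested; limma called 0, and 5 of 76 had an unadjusted p under 0.05, against the 8.54% of all tested probes. Their median difference was -0.02, with 35 positive and 41 negative. By group, 0 of 22 other hydrolases, 0 of 10 other pump subunits, 0 of 21 membrane and transport genes, 0 of 14 sorting genes, 0 of 8 genes of the TFEB family and mTORC1, and 0 of 1 inhibitor of cysteine proteases passed.

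The smallest p among them belonged to Rragc, a Rag GTPase that brings mTORC1 to the lysosome. It read 4747, 10512, 8928, 4318, 9853 and 10368 units in transgenic animals 1 to 6, against 14275, 11488, 13508, 11318, 10713 and 11266 units in nontransgenic animals 1 to 6. The genotypes did not overlap, as for 1.07% of all tested probes, and transgenic animals 1 and 4 read far below the other 4. The difference was -0.66 (SE 0.21, limma adjusted p = 0.278), and the exact two-sided permutation p was 0.00216, the smallest that 6 against 6 animals allow. Pools of the same RNAs did not repeat that separation. They read 11314 and 11948 units for the transgenic pool, against 9762 and 11536.5 units for the nontransgenic pool. Both transgenic pool repeats of Rragc lay above every transgenic animal. Tfeb and Mitf themselves were not tested, because too few arrays were above noise.

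Within the other groups, Vps18, a core subunit of the tethering complexes HOPS and CORVET, read 3562, 4573 and 6918 units in transgenic animals (lowest, median and highest), against 5409, 6651 and 7654 units in nontransgenic ones, a difference of -0.43 (SE 0.16, limma adjusted p = 0.403). Cln3, the membrane protein mutated in juvenile neuronal ceroid lipofuscinosis in humans, read 5242, 6330.5 and 7073 units in transgenic animals (lowest, median and highest), against 6904, 7213 and 8194 units in nontransgenic ones, a difference of -0.23 (SE 0.11, limma adjusted p = 0.557). Siae, a sialic acid esterase, was positive and read 430.3, 504 and 572 units in transgenic animals (lowest, median and highest), against 329, 426 and 464 units in nontransgenic ones, a difference of 0.26 (SE 0.11, limma adjusted p = 0.511). These 3 had overlapping groups and did not pass. Pools of the same RNAs gave the opposite order for Siae, 344 and 360 units for the transgenic pool, against 409 and 488 units for the nontransgenic pool. Pool repeats of Vps18 overlapped, at 4769 and 7158 units (transgenic) against 6893 and 6494 units (nontransgenic). Those of Cln3 overlapped too, at 5729 and 6234 units (transgenic) against 6789 and 5901 units (nontransgenic).

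Gpnmb, a glycoprotein of macrophages loaded with lysosomal cargo, differed by -0.22 (SE 0.10, limma adjusted p = 0.546). Its pools had the opposite order, 56054 and 73383 units for the transgenic pool, against 53205 and 55325 units for the nontransgenic pool. Atp6v1d and Atp6v0e, of the pump, differed by 0.15 (SE 0.12, limma adjusted p = 0.802) and -0.13 (SE 0.12, limma adjusted p = 0.814). Among sorting genes Ap1m1, of the clathrin adaptor AP-1, differed by -0.19 (SE 0.11, limma adjusted p = 0.698) and Vps35, of the retromer, by -0.15 (SE 0.11, limma adjusted p = 0.779). Each of these had overlapping groups. Lamtor2, of the Ragulator complex, differed by -0.11 (SE 0.15, limma adjusted p = 0.890) and Cstb, a cytosolic inhibitor of cathepsins, by -0.04 (SE 0.09, limma adjusted p = 0.938). All of these differences were within about 2 standard errors of 0 apart from that of Gpnmb, and none passed.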

How the data were processed

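RNA of 12 animals and of 4 pool hybridisations was measured on Illumina Mouse Ref-8 v1.1 arrays. The deposited values used are intensities on a linear scale, made by the authors with BeadStudio per the submitters' processing notes. They run below 0 and share nearly 1 distribution, so they had been background-corrected and normalized; by which methods was not given in the sources used here. Another table without normalization has 32 columns whose names match no sample, and these were not used.

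Intensities passed limma's normexp step (saddle, offset 16), which in effect added 96.98 units, then quantile normalization over the 12 animal arrays and log2. Folds of dim probes are understated on this scale. The noise limit was 1.645 times the root mean square of an array's values below 0, which came to between 56.95 and 57.08 units. A probe was tested if above it on at least 3 of 12 arrays, so 10521 of 24607 probes entered the fit, without 4 control probes. The brightest tested probe stood for a gene. Precision is limited by the number of arrays. Symbols came from the platform annotation, which can be old: 19852 probes had 1 symbol and 4755 had none.

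Genotypes were compared with lmFit and eBayes of limma 3.58.1, under R 4.3.3. The two-sided p-values were adjusted by Benjamini-Hochberg across every tested probe, at a threshold of 0.05. Exact permutation tests of single genes used all 924 assignments, and correlations 100000 resamples (Python 3.11.15, scipy 1.17.1). The members and gene lists were chosen with earlier results of these data known. Genes given in full were the 10 with the smallest p, the 3 with the largest SD between animals, and any whose probes differed in sign with an unadjusted p under 0.05. From each further list the 2 with the smallest p were named where none passed. Psap, and other genes given for their spread or for single animals, were named after their values were seen. The procedure was tested on simulated data of 10108 probes. Alternatives covered the background step, offset, normalization, filter, variance model, array weights, marker terms, an exact permutation test and leaving out animals.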

Additional observations from a re-analysis of the deposited data

Results flagged for a closer look

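In 8 of 72 gene-by-genotype groups of 6 animals, 1 animal lay far from the other 5 on normalized log2 values. The measure was Dixon's gap criterion at the 95% level, which passes about 1 group in 20 by chance if values are normally distributed. The groups share the same animals and are not independent, and the count was not made over all tested probes. Whether 8 of 72 is more than on the rest of the array was therefore not tested. The values that follow are deposited intensities, on which gaps can look smaller. Atp6v1b2 in transgenic animal 4 read 14614 units, against 31218 to 38980.4 units in the other transgenic animals. In transgenic animal 2 Ctsh was 13144 units, against 9303 to 10414 units in the rest of that group. Transgenic animal 1 gave 55556 units for Ctsb, above the 44394 to 49658 units of the others, and transgenic animal 3 gave 20073 units for Asah1, below their 24716.5 to 28263.5 units.

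Among nontransgenic animals, number 2 was high for 2 genes, with 52273 units for Laptm5, against 42740.4 to 48159 units, and 40204.6 units for Atp6ap1, against 33433 to 34673 units. Ctsz was low in nontransgenic animal 3, at 11516 units, against 19441 to 24691 units. Gla was high in nontransgenic animal 6, at 622 units, against 388 to 459 units. Why these animals differ was not tested.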

How the results depend on the processing

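The count of called members was 0 under all 27 alternatives, with a smallest limma adjusted p of 0.239 (without transgenic animal 1), and the count of other called lysosomal genes was 0 under all 26 that were run, with a smallest adjusted p of 0.166 (without transgenic animal 6). The median member difference ran from -0.06 to 0.05 on the log2 scale over 26 alternatives, with 0.05 under marker terms and 0.02 without transgenic animals 1 and 6. Of 364 comparisons of the 14 genes given in full with an alternative, 356 kept their direction and their side of the threshold and 8 turned. Alternatives of the filter, the variance model and the permutation test leave the estimated difference as it is. Under those the direction could not turn, so the count overstates how steady the directions are. Leaving out 1 animal at a time gave -0.21 to 0.054 for Ctns, -0.20 to 0.079 for Atp6v1b2 and -0.16 to 0.088 for Ctsa. Ctsa was 0.039 without transgenic animals 1 and 6, and the brighter Asah1 probe was 0.058 with marker terms; the cause was not tested. For Atp6v0d1 the range over single animals left out was -0.53 to -0.33, and with marker terms it was -0.71. Marker terms also moved Galns to 0.79, Ctns to -0.71, Ctsz to 0.59, Ctsh to 0.45, Cst3 to -0.22, Neu1 to -0.11 and Atp6v1b2 to -0.0054, with standard errors of 0.22 to 0.43 over the 14 genes. Over all tested probes the calls were 11 higher and 66 lower, against 7 and 35 with no filter on dim probes, 5 and 28 with a filter on all 12 arrays, 0 and 1 with marker terms, and 6 and 39 without transgenic animal 4. They were 7 and 34 without nontransgenic animal 2. An exact permutation test called 0, but its smallest possible p, 0.00216, passes adjustment only if many probes share it. Without further normalization Laptm5 and Hexa turned to 0.022 and 0.014, and the 6 values of r kept their sign, while rho of Lamp1 and Lamp2 turned to -0.18. No paired analysis was possible because the animals carry no shared replicate number in the labels, and pool repeats are technical. The precision rests on 6 arrays a genotype, and chip was not recorded for any array.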
